A study of Mus musculus with 9 samples.

Results

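Gene expression was measured in J1 mouse embryonic stem (ES) cells kept for 24 h in 1 mM AICAR and in the same cells given its solvent control, DMSO, for 24 h. The samples were chosen by their treatment labels: 3 arrays carry the label AICAR and 3 the label DMSO, 6 of the 9 arrays of the series. The other 3 arrays hold J1 cells given 3 µM CHIR99021, an inhibitor of glycogen synthase kinase 3, for 24 h, and they enter the fit and a few comparisons below. J1 is an established line of strain 129S4/SvJae. All cells, the controls included, were of this 1 line and grew without feeder cells on gelatin, in a medium made with Knockout serum replacement and LIF at 1000 U/mL, a cytokine that keeps mouse ES cells undifferentiated. Total RNA was extracted with TRIZOL, labelled with the dye Cy3 and hybridised to 1-colour Agilent arrays. Whether replicates came from separate cultures is not stated in the labels; all p-values therefore rest on how far these arrays differ within a group, and that variation may be technical only.

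AICAR is a nucleoside that cells take up and that adenosine kinase phosphorylates to ZMP, an intermediate of purine synthesis that resembles AMP. ZMP binds the gamma subunit of AMP-activated protein kinase (AMPK), the energy sensor of the cell, whose alpha subunit carries the kinase and whose beta subunit holds the complex together. Active AMPK is known to promote glucose uptake, autophagy and the burning of fuel, and to restrain the kinase complex mTORC1, ribosome building and other costly synthesis. ZMP also acts on other AMP-sensitive enzymes, among them glycogen phosphorylase, so the drug is not specific to AMPK.

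Levels are given as the log2 processed signal minus the array's 75th percentile, so that 0 marks the 75th percentile of an array, and differences are log2 AICAR minus DMSO with limma's standard error after ±, from 3 arrays a group. Levels are compared within a gene only, since probes differ in brightness. A gene is said to have risen or fallen where limma's adjusted p over all 26866 features was under 0.05. By that rule 60.5% of all features differed, 30.9% being higher and 29.6% lower in AICAR, and these shares are the background for every count below. The median difference over all features was 0.03. When the arrays were scaled on the 8 spike-in probes instead, that median moved to 0.15 and the calls split into 8913 higher and 4555 lower, against 8310 and 7942. Directions of small changes therefore rest on the scaling, and list counts that it moves by more than 1.5 times are given with both values.

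The arrays of a group were alike. Spots well above background made up 65.6% to 66.2% of the total on the DMSO arrays and 66.4% to 67.2% on the AICAR arrays, and the median SD over features was 0.08 in DMSO and 0.11 in AICAR. Each group was hybridised on a slide of its own, so slide and treatment cannot be told apart. In RNA from whole cultures, fewer cells of a type and less RNA per cell cannot be told apart either. The 30 markers of ES cells were all well above background on all 6 arrays. Their mean level was 3.69 to 3.75 on the DMSO arrays and 3.44 to 3.49 on the AICAR arrays. Of the 30, 14 fell, 6 of them by at least 2-fold, and 9 rose, 1 of them by at least 2-fold. Of 15 fibroblast markers 10 could be tested, at a mean level of -2.84 to -2.74 in DMSO and -2.89 to -2.79 in AICAR. Of these 5 rose and 4 fell. All 10 were well above background on all 3 DMSO arrays, and 8 of them on all 3 AICAR arrays. Of 17 blood and endothelial markers 11 could be tested, and their mean level was -1.67 to -1.51 in DMSO and -1.15 to -1.11 in AICAR. Of these 8 rose and 1 fell. On all 3 DMSO arrays 10 of the 11 were well above background, and on all 3 AICAR arrays 11. The part of such cells in the results was not tested.

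AICAR moved 1871 features up and 1434 down by at least 2-fold, 6.96% and 5.34% of all features. Among called genes above background on all 6 arrays and without overlap between the groups, Mal and Mall rose most. They encode related proteins of membrane rafts. Mal read -4.73, -4.50 and -4.40 in DMSO and -0.60, -0.64 and -0.57 in AICAR, a difference of 3.94 ± 0.13 (adjusted p = 3.15e-07). Mall rose by 3.50 ± 0.14. Both genes were dim on all 3 DMSO arrays and far above that on all 3 AICAR arrays. The kisspeptin hormone gene Kiss1 (3.31 ± 0.12), the neuromedin U receptor gene Nmur2 (3.25 ± 0.08), the transglutaminase gene Tgm2 (3.21 ± 0.09), the actin-bundling gene Espn (2.92 ± 0.06) and the receptor tyrosine kinase gene Mst1r (2.78 ± 0.06) were also among the 20 largest rises. So were Nags (2.98 ± 0.06), whose enzyme makes the activator of the urea cycle, and the homeobox gene Lhx5 (3.19 ± 0.16). Cpne8 belongs to the 20 as well, but its AICAR arrays read -3.42, -2.79 and -0.87, and its difference of 2.95 ± 0.58 was 2.21 without replicate 3. Some genes were below background on every DMSO array and allow only a lower bound: AICAR raised the proton channel Otop2 at least 16.05-fold, the Notch ligand gene Dner at least 11.23-fold and the sphingolipid enzyme gene Degs2 at least 9.29-fold. Such bounds set the mean of the bright group against the higher of the dim probe's own signal and the lowest signal well above background on that array.

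Among features with a gene symbol, the largest fall was that of Wt1, a zinc-finger transcription factor of kidney and gonad. It read 1.90, 1.73 and 1.68 in DMSO and -3.15, -3.30 and -3.20 in AICAR, a difference of -4.99 ± 0.08 (adjusted p = 3.73e-08). Vrtn, a gene of vertebral patterning, read 0.39, 0.41 and 0.46 in DMSO and -4.13, -4.34 and -4.11 in AICAR. In neither gene did the groups overlap, which held for 67% of all features. That share is the background for every statement in the text that the arrays of the 2 groups lie apart. Wnt8a, a ligand of early mesoderm, fell by 3.57 ± 0.07, the immediate-early gene Egr1 by 3.27 ± 0.08, the phosphatase-like gene Dusp27 by 3.15 ± 0.06, the eye and brain regulator Pax6 by 3.15 ± 0.28 and the neuroendocrine factor Insm1 by 3.08 ± 0.11. The cytokine genes Tnfsf11, at least 9.36-fold lower, and Il33, at least 5.78-fold lower, were below background on all 3 AICAR arrays. Changes of many dim genes were smaller in an alternative with normexp correction. Normexp was run on median spot and background signals, with a chosen offset of 50 added to every probe. All values given with normexp correction include that offset. The parts of the signal used, the correction and the offset were not told apart. With normexp correction Mal rose by 2.28, Mall by 1.74, Kiss1 by 2.10, Nmur2 by 1.73, Mst1r by 1.21, Lhx5 by 1.31 and Cpne8 by 1.24. With that correction Wt1 fell by 4.11, Wnt8a by 1.71 and Pax6 by 1.35. The genes given by a bound changed less too, with Otop2 at 1.57, Dner at 1.21, Degs2 at 1.06, Tnfsf11 at -1.04 and Il33 at -0.71.

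**Figure D1:**
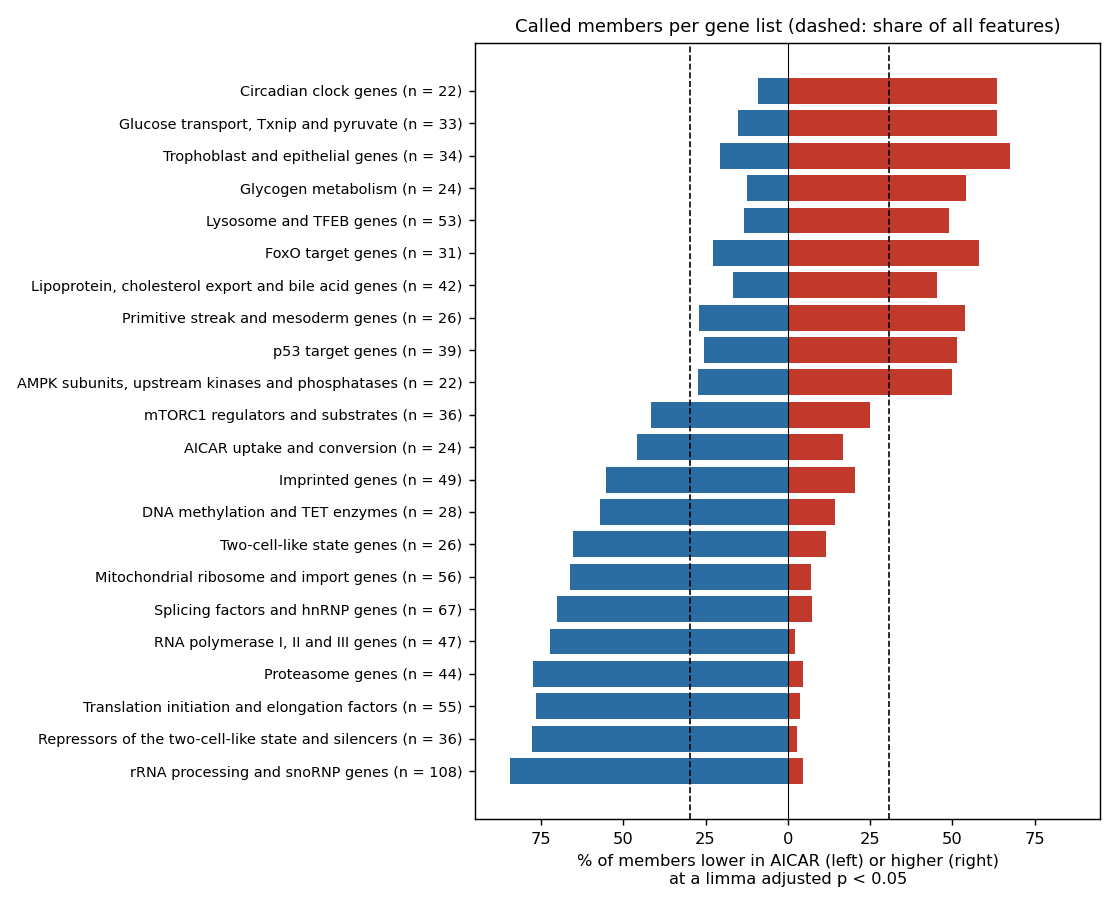
Share of the tested members of 22 gene lists that were lower (blue, to the left) or higher (red, to the right) in AICAR than in DMSO at a limma adjusted p under 0.05, in percent; n is the number of members tested. The dashed lines mark the shares among all 26866 features, 29.6% lower and 30.9% higher. The rRNA processing genes reach 84.3% lower, trophoblast and epithelial genes 67.6% higher, and glucose and clock genes 63.6% higher.

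Among the genes of AMPK itself the catalytic subunits differed. Prkaa2, the alpha2 subunit, read -0.36, -0.35 and -0.32 in DMSO and 1.02, 0.88 and 1.01 in AICAR, a rise of 1.31 ± 0.08 (adjusted p = 5.98e-06). Prkaa1, the alpha1 subunit, read 1.56, 1.74 and 1.69 in DMSO and 1.84, 1.82 and 1.80 in AICAR, a difference of 0.16 ± 0.06 with an adjusted p of 0.046. That call was lost with normexp correction (adjusted p = 0.31), and without any 1 of 5 of the 6 arrays the adjusted p was 0.07 to 0.14. All AICAR arrays lay above all DMSO arrays for both genes, by a wider gap for Prkaa2. The beta1 subunit Prkab1 fell by 0.48 ± 0.05, the gamma2 subunit Prkag2 rose by 0.22 ± 0.06 (0.35 with spike-in scaling), and Prkab2 (0.09 ± 0.05, adjusted p = 0.13) and Prkag1 (0.02 ± 0.08, adjusted p = 0.85) did not pass the test. Of all 22 subunits, upstream kinases and phosphatases tested, 11 rose and 6 fell. The upstream kinase LKB1, encoded by Stk11, fell by 0.44 ± 0.11 (adjusted p = 0.09 with spike-in scaling), and Cab39l, a scaffold of the same complex, rose by 0.45 ± 0.05. Ppm1e, a phosphatase that removes AMPK's activating phosphate, rose by 0.92 ± 0.08, and Cidea, a lipid droplet protein that binds AMPK's beta subunit, by 2.33 ± 0.09.

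Among genes that carry and convert the drug, adenosine kinase, Adk, which makes ZMP, read 3.75, 3.79 and 3.68 in DMSO and 3.01, 3.05 and 3.07 in AICAR, a difference of -0.69 ± 0.05 (adjusted p = 1.68e-05). Its AICAR arrays all lay below its DMSO arrays. Of 24 genes tested for nucleoside transport and AMP metabolism, 11 fell and 4 rose, or 6 and 5 with spike-in scaling. Atic, which uses ZMP in purine synthesis, fell by 0.42 ± 0.08 (0.25 after quantile normalization, and adjusted p = 0.08 with spike-in scaling). Adsl and Adss, which lead to AMP, fell by 0.43 ± 0.05 and 0.53 ± 0.04, and the AMP deaminase gene Ampd2 and the adenosine deaminase gene Ada by 0.56 ± 0.05 and 0.53 ± 0.08. Slc29a1, the main equilibrative nucleoside carrier, did not pass the test (-0.14 ± 0.09, adjusted p = 0.19), while the concentrative carrier Slc28a3 rose by 0.81 ± 0.11 (0.49 with normexp correction). Adssl1, the muscle form of adenylosuccinate synthase, rose by 1.58 ± 0.07.

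Genes of glucose uptake and pyruvate handling rose: 21 of 33 tested were higher (63.6%) and 5 lower (15.2%), with a median difference of 0.35. Txnip, an arrestin that draws glucose transporters off the cell surface, read 2.51, 2.50 and 2.45 in DMSO and 4.57, 4.53 and 4.73 in AICAR, a rise of 2.12 ± 0.06 (adjusted p = 1.77e-07). Its relatives Arrdc4 and Arrdc2 rose by 0.68 ± 0.07 and 1.08 ± 0.05, with a second probe of Arrdc4 at 2.36 and the mean of both at 1.52. Each of these was higher on every AICAR array than on any DMSO array, and the further relative Arrdc3 fell by 0.32 ± 0.11. The call of Arrdc3 was lost with spike-in scaling (adjusted p = 0.30), with only the 6 arrays fitted (0.061), with the replicate block (0.058) and without any 1 of 4 of the 6 arrays (0.080 to 0.086). Among transporters, Slc2a6 (1.72 ± 0.15, but 0.94 with normexp correction), the insulin-responsive Slc2a4 (0.88 ± 0.07) and the high-affinity Slc2a3 (0.46 ± 0.07) rose, while the fructose carrier Slc2a5 fell by 1.18 ± 0.06. Tbc1d4, the brake on Slc2a4 traffic that AMPK and Akt phosphorylate, rose by 1.00 ± 0.07. At the entry to the mitochondria, the pyruvate dehydrogenase kinases Pdk4 (1.64 ± 0.08) and Pdk2 (1.21 ± 0.13) and the pyruvate carrier Mpc1 (0.79 ± 0.05) rose, and Pdk1, a kinase of the same step, fell by 0.67 ± 0.07. Pfkfb3, which makes the activator of phosphofructokinase, rose by 0.95 ± 0.07, and Tigar, which breaks that activator down, fell by 0.85 ± 0.06.

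Of 24 glycogen genes 13 rose and 3 fell, with a median of 0.25 (15 and 5 with normexp correction, 14 and 1 with spike-in scaling). Ppp1r3c, which brings protein phosphatase 1 to glycogen and so favours its synthesis, read -3.17, -3.29 and -2.90 in DMSO and -0.02, 0.21 and 0.15 in AICAR, a rise of 3.23 ± 0.11 (adjusted p = 3.63e-07). Pygl, the liver form of glycogen phosphorylase that breaks glycogen down, read -1.51, -1.29 and -1.13 in DMSO and 1.77, 1.69 and 1.65 in AICAR, a rise of 3.01 ± 0.10. Genes of both arms of glycogen turnover thus stood far above their DMSO levels on all AICAR arrays. A second targeting subunit, Ppp1r3d, rose by 1.33 ± 0.12 (0.78 with normexp correction), the branching enzyme Gbe1 by 0.56 ± 0.07, phosphoglucomutase Pgm1 by 0.84 ± 0.06, the brain phosphorylase Pygb by 0.48 ± 0.05 and the glycogen adaptor Stbd1 by 0.51 ± 0.07. The synthase Gys1 (0.02 ± 0.09, adjusted p = 0.83) did not pass the test, and the phosphorylase kinase subunits Phka1 (-0.38 ± 0.05) and Phkg2 (-0.35 ± 0.07, adjusted p = 0.15 with spike-in scaling) fell.

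**Figure D2:**
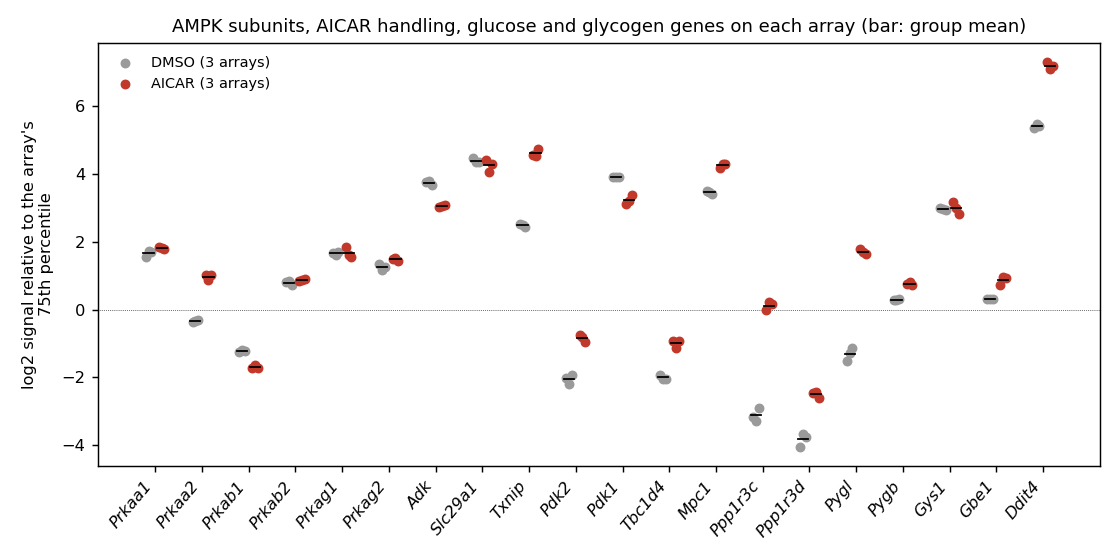
Log2 signal relative to the array's 75th percentile for 20 genes of AMPK, AICAR handling, glucose, glycogen and mTORC1, with 1 point per array, 3 DMSO arrays in grey and 3 AICAR arrays in red, and a bar at each group's mean. Txnip, Ppp1r3c and Pygl rise by 2.12 to 3.23, while Prkab2, Prkag1 and Gys1 did not pass the test. Heights are read within a gene.

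Some promoters of these genes hold E-box letters, which glucose-sensing and Myc-type factors are known to read. In the RefSeq promoter windows of build GRCm38.p6, 250 bases before to 50 after a start, the E-box CACGTG (the same on both strands) was found for 10.9% of the 12789 genes that were tested on the arrays, against 7 of 30 glucose and pyruvate genes with a window (23.3%) and 3 of 22 glycogen genes (13.6%). The pair of E-box-like sites known as the carbohydrate response element was searched as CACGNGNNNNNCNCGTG, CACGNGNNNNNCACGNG and its reverse complement. It was found for 0.125% of the tested genes, and Txnip was the 1 of those 30 that held it (3.33%). The pair is not particular to the glucose genes. It was also in 3 of 44 germline and meiosis genes (6.82%), 1 of 19 AMPK genes (5.26%) and 1 of 26 Polycomb genes (3.85%). Stretches upstream of the start are shown for Txnip, Arrdc4 and Ppp1r3c, which all rose. Txnip and Arrdc4 were to be shown whatever their result. Ppp1r3c is the glycogen gene with the largest rise and CACGTG before the start, and was picked after its value was seen. Capitals mark the pair in Txnip and CACGTG in the others. The Txnip stretch lies on the plus strand at chr3:96557812-96557948. Those of Arrdc4 and Ppp1r3c lie on the minus strand at chr7:68749366-68749488 and chr19:36736643-36736768. The motifs of Txnip, Arrdc4 and Ppp1r3c begin 85, 193 and 104 bases before the start. A match describes the letters and shows no binding. The share with CACGTG varied among the other lists and is not particular to the glucose genes. It was 36.4% for germline and meiosis genes, 26.8% for translation factors, most of which fell, and 2.5% for NRF2 and glutathione genes.
Txnip: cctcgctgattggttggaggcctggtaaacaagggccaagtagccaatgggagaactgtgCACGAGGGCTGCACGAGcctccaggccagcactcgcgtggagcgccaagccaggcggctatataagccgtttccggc
Arrdc4: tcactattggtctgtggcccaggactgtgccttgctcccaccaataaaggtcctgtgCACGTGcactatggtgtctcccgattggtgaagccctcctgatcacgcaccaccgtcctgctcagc
Ppp1r3c: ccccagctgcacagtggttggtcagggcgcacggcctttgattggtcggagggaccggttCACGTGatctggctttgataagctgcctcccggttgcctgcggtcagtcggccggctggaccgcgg

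Myc, a transcription factor that drives growth and binds CACGTG with its partner Max, was among the 20 largest falls. It read 1.02, 0.84 and 0.85 in DMSO and -2.88, -2.91 and -2.66 in AICAR, a difference of -3.72 ± 0.08 (adjusted p = 6.61e-08). Mycn, its relative, read 4.03, 3.98 and 4.12 in DMSO and 3.06, 3.01 and 2.87 in AICAR, a difference of -1.06 ± 0.07. Every AICAR array was below every DMSO array for both genes, which for Myc was required of the 20 largest falls. Of 23 genes tested of the Myc and Max network, 10 fell and 4 rose. Among known Myc targets in it, the polyamine enzymes Srm and Odc1 fell by 0.90 ± 0.07 and 0.83 ± 0.07, and the nucleotide kinase Nme1 by 0.65 ± 0.05. The repressor Mnt, which competes for Max, fell by 0.75 ± 0.07, and the Myc antagonist Bin1 rose by 1.02 ± 0.07. Mlxipl, the glucose-sensing factor ChREBP that binds the paired element, rose by 0.35 ± 0.06.

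The genes that build ribosomes fell, with the largest share of falling members among the 55 lists. Of 108 genes of rRNA processing and small nucleolar RNPs, 91 fell (84.3%) and 5 rose, with a median of -0.55, and 73 still fell with spike-in scaling. Pes1, of the PeBoW complex that matures the large subunit, read 3.39, 3.32 and 3.41 in DMSO and 1.29, 1.45 and 1.43 in AICAR, a difference of -1.99 ± 0.06 (adjusted p = 3.18e-07); a second probe gave -0.71. The nucleolar GTPase Gnl3 read 3.94, 3.95 and 3.68 in DMSO and 2.77, 2.79 and 2.86 in AICAR. For these genes too, no AICAR array reached a DMSO array. The small-subunit factor Wdr43 fell by 1.00 ± 0.04, Rrp1b by 0.99 ± 0.07, Nifk by 0.92 ± 0.05 and the helicase Ddx51 by 0.90 ± 0.07, while Lyar, a nucleolar zinc-finger gene, rose by 1.46 ± 0.08 (0.91 with normexp correction). Of 47 subunits and factors of RNA polymerases I, II and III, 34 fell and 1 rose (17 and 1 with spike-in scaling), among them Polr3d (-0.77 ± 0.10) and the polymerase I factor Taf1d (-0.69 ± 0.05). The 1 that rose, Polr3gl (0.76 ± 0.05), is the alternative form of a polymerase III subunit.

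Among the 92 rRNA processing genes with a promoter window, 17 held CACGTG (18.5%, against 10.9% of all tested genes). For the glucose and pyruvate genes, most of which rose, the share was 23.3%. The stretches of Utp18, a small-subunit processome gene that fell by 0.80 ± 0.10 (by 0.27 with normexp correction), and Nop2, an rRNA methyltransferase gene that fell by 0.75 ± 0.06, are shown because they are the members with the largest falls and CACGTG before the start; they were picked after their values were seen. Capitals mark CACGTG, which begins 20 bases before the start in Utp18 (minus strand, chr11:93885767-93885846) and 60 bases before it in Nop2 (plus strand, chr6:125131763-125131882).
Utp18: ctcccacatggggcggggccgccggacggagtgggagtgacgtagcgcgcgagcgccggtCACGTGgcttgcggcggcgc
Nop2: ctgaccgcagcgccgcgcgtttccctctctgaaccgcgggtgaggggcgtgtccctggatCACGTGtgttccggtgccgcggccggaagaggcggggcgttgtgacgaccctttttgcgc

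Lists further along the path from RNA to protein held more falls than rises, in numbers that depend on the scaling. Of 67 splicing factors and hnRNP genes, whose median was -0.37, 47 fell and 5 rose (28 and 5 with spike-in scaling), including Srsf3 (-1.24 ± 0.08), Srsf5 (-1.22 ± 0.13) and the neural splicing regulator Ptbp2 (-1.09 ± 0.10), while Clk1, a kinase of SR proteins, rose by 0.55 ± 0.07. Of 55 translation factors 42 fell and 2 rose (19 and 2 with spike-in scaling). Eif5, which triggers GTP hydrolysis at the start codon, read 4.97, 4.98 and 4.87 in DMSO and 3.35, 3.32 and 3.45 in AICAR, a difference of -1.57 ± 0.06. Of 44 proteasome genes 34 fell and 2 rose (12 and 2 with spike-in scaling). The falls were led by Psmb10 at -1.01 ± 0.06 and the ATPase Psmc4 at -0.80 ± 0.05, and Psmb9 rose by 0.79 ± 0.06. Of 56 mitochondrial ribosome and import genes 37 fell and 4 rose (14 and 4 with spike-in scaling), with Mrpl20 at -0.90 ± 0.06. For the 74 genes of the respiratory chain the direction rests on the scaling, with 11 higher and 22 lower here but 34 and 7 after quantile normalization and 14 and 1 with spike-in scaling. Among regulators of mitochondria, the deacetylases split: Sirt1 fell by 0.75 ± 0.08 and mitochondrial Sirt3 rose by 0.86 ± 0.06.

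**Figure D3:**
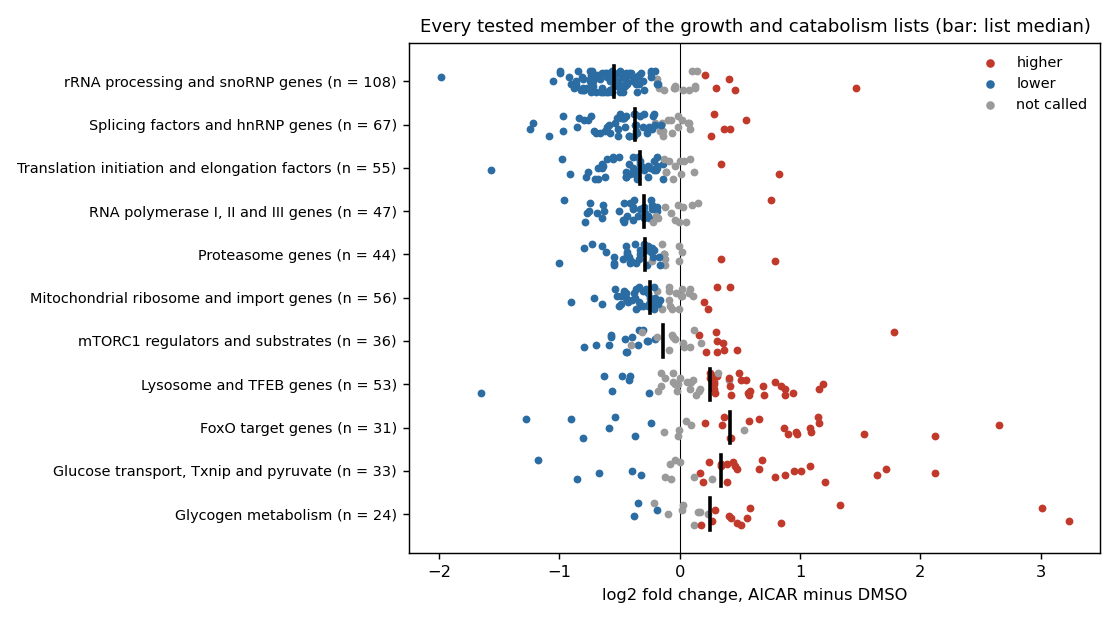
Log2 fold change (AICAR minus DMSO) of every tested member of 11 gene lists, with 1 point per gene, red where it was called higher, blue where called lower and grey where not called, and a bar at the list's median. The rRNA processing genes lie almost wholly to the left with a median of -0.55, and the glucose, FoxO, glycogen and lysosome lists have medians of 0.25 to 0.42.

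Of the 36 mTORC1 regulators and substrates tested 15 fell and 9 rose, or 5 and 9 with spike-in scaling. Ddit4, which encodes the mTORC1 inhibitor REDD1, read 5.35, 5.49 and 5.41 in DMSO and 7.31, 7.09 and 7.18 in AICAR, a rise of 1.78 ± 0.16 (adjusted p = 3.95e-05). Sestrin 1, Sesn1, also rose (0.48 ± 0.04), whereas Sesn2 fell by 0.57 ± 0.07. The lysosomal GTPase Rragb fell by 0.79 ± 0.06 and the S6 kinase Rps6kb2 by 0.70 ± 0.09, and the core kinase Mtor did not pass the test (-0.04 ± 0.04, adjusted p = 0.43, but -0.17 and 0.037 with normexp correction). The adaptor Rptor, a direct AMPK substrate, fell by 0.34 ± 0.04 (adjusted p = 0.09 with spike-in scaling).

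Of 53 lysosomal genes 26 rose and 7 fell (4 with spike-in scaling), with a median of 0.25. The factor Mitf, a relative of the lysosomal regulator TFEB, rose by 1.19 ± 0.09 and the membrane protein Lamp2 by 1.16 ± 0.08. The hydrolases rose by less: Gaa, which digests glycogen inside lysosomes, by 0.88 ± 0.09 and the sulfatase Arsa by 0.88 ± 0.06. The protease gene Ctsk fell by 1.65 ± 0.18, but by 0.39 with normexp correction. CACGTG, the core of the TFEB motif, was in the promoter window of 15 of the 40 lysosomal genes that have one (37.5%); the list holds known TFEB targets, which this motif defines in part. The 2 stretches are those of the members with the largest rises and CACGTG before the start, on the minus strand at chr15:89477425-89477500 for Arsa and the plus strand at chr11:119267763-119267888 for Gaa, with capitals on CACGTG, 16 and 140 bases before the start.
Arsa: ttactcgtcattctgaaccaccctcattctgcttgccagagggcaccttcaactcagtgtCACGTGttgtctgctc
Gaa: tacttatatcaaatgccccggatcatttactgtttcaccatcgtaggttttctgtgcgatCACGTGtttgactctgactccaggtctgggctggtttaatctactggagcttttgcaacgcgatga

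Autophagy genes as a list stayed near the background, with 14 of 45 higher and 17 lower (16 and 5 with spike-in scaling). Wipi1, which binds the lipid of the forming autophagosome, rose by 1.37 ± 0.08 and the LC3 relative Gabarapl1 by 0.75 ± 0.07, while Atg16l1, which helps attach LC3 to membranes, fell by 0.61 ± 0.07. FoxO targets rose, 18 of 31 being higher and 7 lower (4 with spike-in scaling), with a median of 0.42. Foxo6 itself read -0.52, -0.42 and -0.57 in DMSO and 2.17, 2.16 and 2.13 in AICAR, a rise of 2.65 ± 0.08 (adjusted p = 2.21e-07). The target Ccng2, an atypical cyclin, rose by 1.53 ± 0.14, the PI3-kinase inhibitor Pik3ip1 by 1.16 ± 0.08 and the repressor Bcl6 by 1.09 ± 0.06, and Trib1, a pseudokinase, fell by 1.28 ± 0.05. In the list of lipoprotein and cholesterol export genes, 19 of 42 rose and 7 fell (21 and 4 with spike-in scaling). Abcg1, a sterol exporter, and Mylip, which degrades the LDL receptor, rose by 1.57 ± 0.10 and 1.66 ± 0.08. Both are known targets of the sterol receptor LXR, as is Apoe, which rose by 0.71 ± 0.08.

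Stress responses moved in both directions. Of 40 genes of the ATF4 and amino acid response 15 rose and 16 fell (14 and 9 with spike-in scaling). The glutamine carrier Slc38a2 read 5.08, 4.96 and 5.09 in DMSO and 2.86, 2.93 and 2.97 in AICAR, a difference of -2.12 ± 0.06 (adjusted p = 1.77e-07), and the glutathione-degrading enzyme Chac1 fell by 1.91 ± 0.07, the arginine carrier Slc7a3 by 1.40 ± 0.06 and Atf4 itself by 1.08 ± 0.07. In the same list Gadd45b read 2.80, 2.83 and 2.78 in DMSO and 4.51, 4.51 and 4.43 in AICAR, a rise of 1.68 ± 0.05, and Ddit3, the factor CHOP, rose by 1.22 ± 0.06. None of the AICAR arrays overlapped the DMSO arrays for these genes. Of 31 unfolded protein response genes 14 fell and 3 rose (6 and 3 with spike-in scaling), with Herpud1 at -0.93 ± 0.06. The NRF2 target Akr1b8 fell by 1.75 ± 0.04; heme oxygenase, Hmox1, fell by 2.29 ± 0.71, but its AICAR arrays read -0.11, 2.07 and 0.57, replicate 2 standing apart, and without any 1 of 4 of the 6 arrays its adjusted p was 0.058 to 0.077. In all, 21 of 47 NRF2 and glutathione genes fell and 13 rose, 5 of the falls and 2 of the rises being at least 2-fold. Differences in that list ran from -2.29 to 2.82, so its largest change was a rise.

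Of 39 p53 targets 20 rose and 10 fell (21 and 6 with spike-in scaling), with a median of 0.31, although Trp53 itself fell by 0.75 ± 0.10. The tetraspanin Cd82 rose by 2.22 ± 0.09, the death receptor Fas by 1.82 ± 0.09, the ribonucleotide reductase subunit Rrm2b by 1.72 ± 0.12 and the anti-proliferative gene Btg2 by 1.39 ± 0.08. With normexp correction Fas rose by 0.87 and Rrm2b by 0.81. Several inhibitors of cyclin-dependent kinases rose: Cdkn2c by 1.25 ± 0.08 (0.66 with normexp correction), Cdkn2b by 1.08 ± 0.07 and Cdkn1b by 0.66 ± 0.07. Cdkn1a rose by 0.80 ± 0.11, but its second probe gave -0.12 and the mean of both 0.34. Cdkn1c, an imprinted inhibitor, fell by 0.93 ± 0.07, and the D cyclins Ccnd2 and Ccnd1 fell by 0.77 ± 0.05 and 0.47 ± 0.05. Of 62 replication and G1/S genes 26 fell and 4 rose (12 and 6 with spike-in scaling), the origin gene Orc2 by 0.80 ± 0.06. Among 36 apoptosis regulators 14 rose and 12 fell, with the kinase Ripk1 at -0.93 ± 0.07.

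Genes of the 2-cell-like state, a rare state of ES cells that resembles the 2-cell embryo, fell. Of 26 tested 17 fell and 3 rose, 15 of the falls being at least 2-fold, with a median of -1.44. Of the 43 genes listed, the others were not tested. With only probes above background on all 9 arrays, 10 of 17 fell and 3 rose, with a median of -0.68, and with normexp correction the median of the 26 was -0.48. The rises numbered 1 without DMSO replicate 2 or 3 or AICAR replicate 1 or 2. Zscan4f, which protects telomeres in this state, read 1.75, 1.60 and 1.63 in DMSO and -2.16, -2.34 and -2.13 in AICAR, a difference of -3.87 ± 0.07 (adjusted p = 3.73e-08). Zscan4a and Zscan4c fell by 3.76 ± 0.09 and 3.61 ± 0.12, and Usp17lb and Pramel16 were at least 9.68-fold and 9.27-fold lower (differences of -0.91 and -1.21 with normexp correction). These families hold near-identical copies that probes may not separate, so the falls are not independent. The genes that hold this state and retroviruses silent fell too: of 36 tested 28 fell and 1 rose (16 and 2 with spike-in scaling). Zfp57, which protects imprints, fell by 1.38 ± 0.07, Lin28a by 1.33 ± 0.07, the telomere and silencing factor Rif1 by 1.03 ± 0.05 and the corepressor Trim28 by 0.58 ± 0.08. The same list holds Dppa2 and Dppa4, which are known to turn on Dux and the 2-cell programme, and they fell by 0.94 ± 0.05 and 1.01 ± 0.05.

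Genes that set DNA methylation de novo were among those that fell. Dnmt3l, the catalytically inactive partner of the de novo enzymes, read 6.06, 6.07 and 6.09 in DMSO and 3.54, 3.33 and 3.34 in AICAR, a difference of -2.67 ± 0.07 (adjusted p = 1.77e-07). Dnmt3b, a de novo methyltransferase, read 6.16, 6.24 and 6.24 in DMSO and 4.36, 4.34 and 4.21 in AICAR, a difference of -1.91 ± 0.05. Dnmt3a and the maintenance factor Uhrf1 fell by 0.26 ± 0.05 (adjusted p = 0.29 with spike-in scaling) and 0.47 ± 0.06 (0.30 in the authors' series table). Prdm14, a repressor of Dnmt3b in naive cells, rose by 0.94 ± 0.07. Of 28 methylation and TET genes 16 fell and 4 rose (10 and 4 with spike-in scaling). Imprinted genes fell more often than they rose, 27 against 10 of 49, with Mest at -1.43 ± 0.05 and, from 1 imprinted region, Dlk1 (-1.40 ± 0.05), Meg3 (-1.22 ± 0.08) and Mirg (-1.66 ± 0.19). Dppa3, a germline and ES cell gene that protects methylation in the zygote, fell by 1.57 ± 0.08.

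Within Polycomb, the machinery of gene silencing by histone marks, the chromobox subunits Cbx8 and Cbx7 rose, and the core subunits Ezh2 and Suz12 did not pass the test. Cbx8 read -4.99, -5.47 and -5.06 in DMSO and -1.97, -1.84 and -2.02 in AICAR, a rise of 3.23 ± 0.12. All 3 AICAR arrays lay above the DMSO arrays. Cbx7, the chromobox protein typical of ES cells, rose by 0.96 ± 0.18 and the methyltransferase Ezh1 by 0.81 ± 0.04. With normexp correction the rises of Cbx8 and Cbx7 were 1.52 and 0.52. Ezh2 (-0.04 ± 0.05, adjusted p = 0.47) and Suz12 (0.02 ± 0.07, adjusted p = 0.84) did not pass the test, and the ring-finger subunit Bmi1 fell by 0.88 ± 0.08. In all, 14 of 32 Polycomb genes fell and 8 rose (7 and 8 with spike-in scaling).

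**Figure D4:**
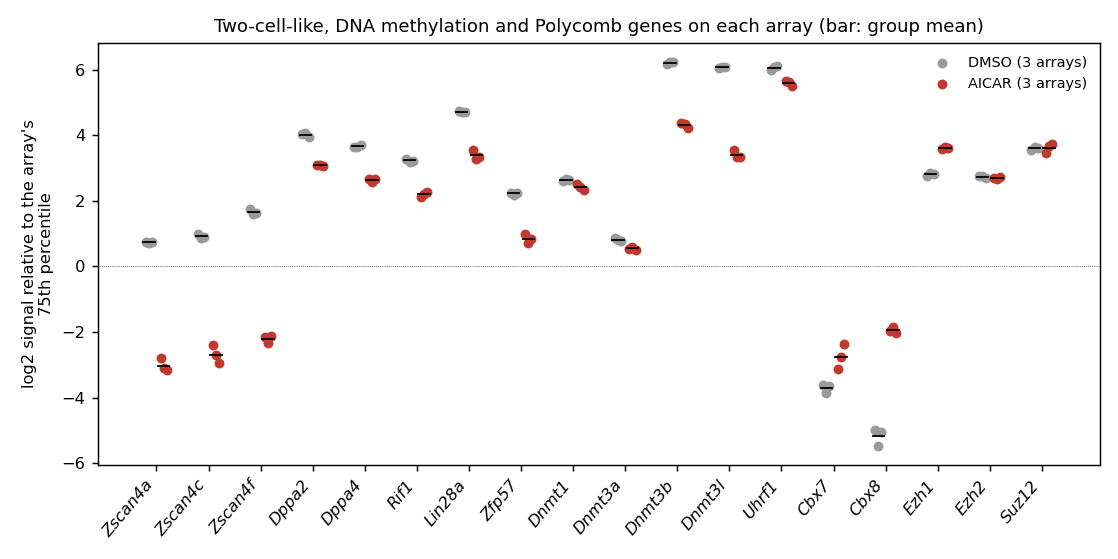
Log2 signal relative to the array's 75th percentile for 18 genes of the 2-cell-like state, DNA methylation and Polycomb, with 1 point per array, 3 DMSO arrays in grey and 3 AICAR arrays in red, and a bar at each group's mean. The Zscan4 genes, Dnmt3b and Dnmt3l drop, Cbx8 climbs, and Ezh2 and Suz12 overlap between the groups.

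Hox genes, which pattern the body axis and lie in 4 clusters, split by cluster. In the Hoxb cluster 9 of 10 tested genes fell and no other passed the test, and in Hoxa 4 of 7 fell and 1 rose. In Hoxc 3 of 4 rose and in Hoxd 4 of 5, with no call lower in either. Hoxb2 read -2.06, -2.03 and -2.05 in DMSO and -5.77, -5.81 and -5.67 in AICAR, a difference of -3.70 ± 0.05, and Hoxb1 and Hoxb5 were at least 7.80-fold and 5.05-fold lower. Hoxc4 rose by 2.10 ± 0.11 and Hoxd1 by 1.77 ± 0.20, and Hoxd4 was at least 2.72-fold higher. Most of these probes are dim. With normexp correction the differences were -1.57 for Hoxb2, -0.92 for Hoxb1, -0.74 for Hoxb5, 1.26 for Hoxc4, 0.47 for Hoxd1 and 0.34 for Hoxd4. Hoxc9, 1 of the 3 Hoxc genes called, was below background on all 6 arrays. With only probes above background on all 9 arrays, 7 of 14 Hox genes fell and 5 rose.

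**Figure D5:**
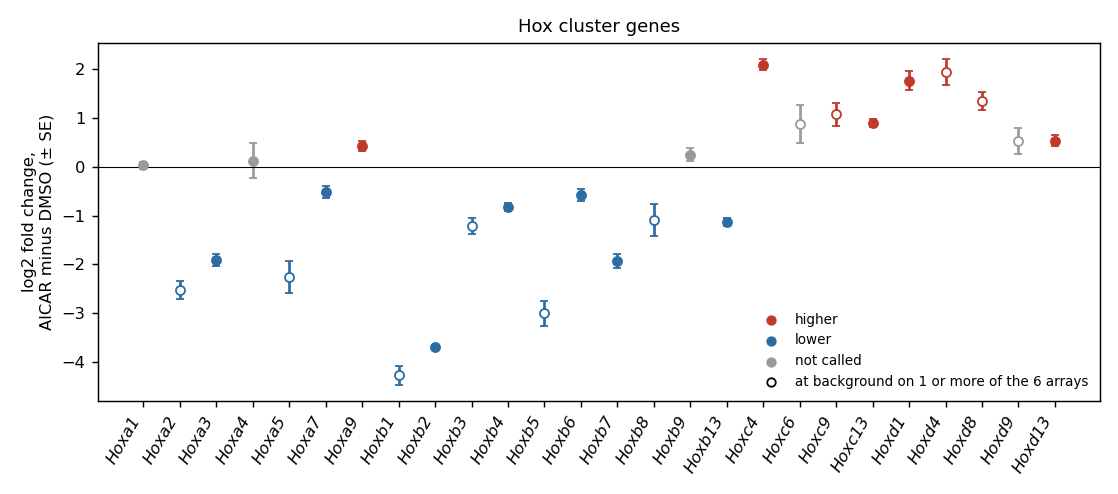
Log2 fold change (AICAR minus DMSO, with its standard error as bars) of the 26 tested Hox genes in cluster order, red where called higher, blue where called lower and grey where not called; open points are genes below background on at least 1 of the 6 arrays. All 13 falls are in Hoxa and Hoxb, and 7 of the 8 rises are in Hoxc and Hoxd.

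Of 39 feedback and immediate-early genes of the FGF/ERK pathway 15 rose and 16 fell. Dusp6, a phosphatase of ERK, read 3.20, 3.27 and 3.18 in DMSO and 0.99, 1.04 and 1.16 in AICAR, a difference of -2.15 ± 0.06 (adjusted p = 1.34e-07), and the inhibitors Spry2 and Spry4 fell by 1.65 ± 0.04 and 1.66 ± 0.13. The immediate-early gene Fos rose by 1.76 ± 0.05 and the receptor Fgfr3 by 2.48 ± 0.05. Among Wnt genes, 20 rose and 20 fell of 55: Lef1, the DNA-binding factor of the pathway, fell by 2.45 ± 0.06, and the ligands Wnt10a and Wnt6 rose by 2.41 ± 0.16 (0.99 with normexp correction) and 1.52 ± 0.07. Among Nodal and BMP genes, the Nodal antagonist Lefty1 read 4.10, 4.01 and 4.13 in DMSO and 1.65, 1.35 and 1.55 in AICAR, a difference of -2.57 ± 0.08. The BMP-induced gene Id3 fell by 2.16 ± 0.06, while the ligands Bmp7 and Bmp4 rose by 1.80 ± 0.06 and 1.20 ± 0.10. Of 25 LIF, STAT3 and cytokine genes tested 9 rose and 6 fell, with a median of 0.09 and a range of -2.35 to 1.16. At least 2-fold were 2 of the rises and 3 of the falls. Gbx2 and Socs2, targets of LIF signalling through STAT3, fell by 2.35 ± 0.06 and 1.39 ± 0.04.

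Epithelial and trophoblast genes rose, with 23 of 34 higher, 7 lower and 12 at least 2-fold higher. The keratin gene Krt19 read -0.17, -0.12 and -0.02 in DMSO and 1.96, 1.83 and 1.76 in AICAR, a rise of 1.95 ± 0.06 (adjusted p = 3.24e-07), and Krt7 and the epithelial factor Elf3 rose by 2.31 ± 0.13 (1.39 with normexp correction) and 2.24 ± 0.09. Cdx2, the defining factor of trophoblast, was at least 1.84-fold lower, and Epcam fell by 0.71 ± 0.07. The bound for Cdx2 was not called with normexp correction (adjusted p = 0.17). The junction genes Tjp3 and Cldn7 rose by 1.38 ± 0.06 and 1.38 ± 0.10, and Zeb2, a repressor of epithelial genes, fell by 2.42 ± 0.07 (1.31 with normexp correction). Of 26 primitive streak and mesoderm genes 14 rose and 7 fell (12 and 3 of 17 with the 9-array filter), with the organiser gene Gsc at 2.58 ± 0.20 and Mesp1 at 1.72 ± 0.11 (1.47 and 0.69 with normexp correction). Of 31 primitive endoderm genes 13 rose and 12 fell (13 and 7 of 23 with that filter): the endocytic receptors Cubn and Lrp2 fell by 2.82 ± 0.10 and 2.60 ± 0.06, and the keratin Krt8 and the factor Gata6 rose by 1.87 ± 0.07 and 1.00 ± 0.07. Of 33 neural genes 16 fell and 12 rose, with Zic2 at -2.15 ± 0.07 and the Notch target Hes1 at 1.59 ± 0.08.

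Clock genes rose: 14 of 22 were higher, 2 lower (16 and 1 with spike-in scaling), and the median was 0.40. Bhlhe40, a repressor in the clock, read 0.96, 1.13 and 1.00 in DMSO and 3.23, 3.11 and 3.35 in AICAR, a rise of 2.19 ± 0.08 (adjusted p = 4.17e-07), and the output factors Nfil3 and Tef rose by 1.18 ± 0.06 and 1.00 ± 0.08. The activator Arntl and the kinase gene Csnk1d were the 2 that fell, by 0.32 ± 0.08 (adjusted p = 0.24 with spike-in scaling) and 0.95 ± 0.11 (0.57 as the mean of its probes). Among 61 cilium genes 23 rose and 7 fell (26 and 3 with spike-in scaling, and 19 to 22 and 4 without any 1 DMSO array). Rsph9, of the radial spokes of motile cilia, read -1.30, -1.16 and -1.23 in DMSO and 1.42, 1.45 and 1.46 in AICAR, a rise of 2.67 ± 0.05 (adjusted p = 3.73e-08). Foxj1, the master factor of motile cilia, rose by 1.97 ± 0.15 (1.14 with normexp correction) and the dynein Dnah2 by 1.87 ± 0.06, and all of these were higher on each AICAR array than on any DMSO array.

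Leading genes were also tested directly between AICAR and CHIR99021, where 60.8% of features differed. Txnip was 3.33 ± 0.06 higher with AICAR than with CHIR99021 (adjusted p = 2.07e-08) and Tgm2 3.66 ± 0.09 higher (7.01e-08). Vrtn, Hoxb2 and Myc were lower with AICAR, with differences of -3.92 ± 0.07, -3.81 ± 0.05 and -3.13 ± 0.08. Mycn did not differ between the drugs beyond its error (-0.06 ± 0.07, adjusted p = 0.49). Pax6 was 1.84 higher with AICAR than with CHIR99021, although it fell against DMSO.

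Features named in the files only by a chromosome interval numbered 3693, of which 1129 were higher and 703 lower, with a median of 0.12.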

How the data were processed

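Arrays were read out by Agilent Feature Extraction (10.7.3.1 per the file headers, 10.7 per the submitters' processing notes), whose probe annotation uses build mm9. The deposited intensity is the processed Cy3 signal of each of 59305 spots, background-subtracted by that program per the file headers; the deposited series table holds log2 values with equal percentiles on all arrays, with centring not given in the sources used, which served as an alternative.

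Here log2 processed signal minus the array's 75th percentile over non-control spots was used. Outlier spots were left out, spots averaged per probe, probes well above background on at least 3 of 9 arrays kept (37742 of 55681), and the brightest probe taken per gene; 389 of 6809 features with several probes had called probes of opposite sign. Precision is limited by 3 arrays a group. All 9 arrays were fitted with limma 3.58.1 in R 4.3.3 (lmFit, eBayes), with Benjamini-Hochberg adjustment over 26866 features; the fit was tested on simulated data. Normexp used median spot and background signals, since mean signals were not used here, and an offset of 50 was added. Symbols came through accessions from a RefSeq table of GRCm38.p6 (27235 probes matched), used for names alone, and promoter windows by symbol from the RefSeq table of the same build.

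Replicate numbers did not pair the arrays: the correlations of deviations between same-numbered AICAR and DMSO arrays were -0.01, -0.06 and -0.05. Named genes were the 20 largest rises and falls above background on all 6 arrays without overlap, the 10 largest bounds each way, up to 6 called members per direction of a list (every member of some lists), and fixed genes of AMPK, AICAR handling and pluripotency; not all are printed, and some genes are not reported here. The members and the 55 lists were chosen with earlier results of these data known. Alternatives covered background correction, scaling, filters, probe choice, the arrays fitted and leaving out each array.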

Additional observations from a re-analysis of the deposited data

How the results depend on the processing

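Counts of features kept within 1.5 times of the reported ones under all alternatives run, with these exceptions. Spike-in scaling left 4555 lower. Normexp correction left 610 features at least 2-fold higher and 600 at least 2-fold lower, and a 1.5-fold limit gave 3981 and 3279. Leaving out each array in turn gave 7451 to 8041 higher and 7118 to 7730 lower. With the replicate number as a block, 7942 were higher and 7518 lower; the numbers do not pair the arrays. A slide block could not be fitted, since each group has its own slide. Of 215 genes named, none turned direction with a call under any alternative run; the calls of 3 were lost with normexp, 7 with spike-in scaling and 3 with the block, and normexp moved 42 of 208 called changes by over 1.5 times, the cause of which was not tested. Quantile normalization moved list counts as well: 83 rRNA processing genes fell and 9 rose, 27 and 6 translation factors, 27 and 4 polymerase genes, 19 and 4 proteasome genes, 26 and 10 mitochondrial ribosome and import genes, 18 and 4 silencers, 18 and 9 replication genes, and 11 and 5 unfolded protein response genes. Of the 2-cell-like genes, 19 then fell and 1 rose. Signal near background limits the Hox genes and other dim probes.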
